A study of Mus musculus with 6 samples.

Results

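The cytosolic ribosomal proteins are the proteins that, with the ribosomal RNAs, build the large and small subunits of the ribosome outside mitochondria. Their genes were taken by symbol, as those starting with Rpl or Rps followed by a digit, a p or sa, leaving out 19 pseudogenes named with -ps and 10 genes of the Rps6k kinases. This gave 87 of the 19323 genes in the table, 52 of the large and 35 of the small subunit. GENCODE M21 lists 3 of the 87 (Rps4l, Rpl37rt and Rpl6l) as processed pseudogenes, transcribed or not. RNA had been sequenced from primary CD8+ T cells, the cytotoxic lineage of T lymphocytes, of the spleens of wild-type C57BL/6 mice, aged 6 weeks at the start of either diet. The animals received MCDHFD (3 libraries) or ND (3 libraries) for 7 weeks, and the labels, which do not spell out either diet, mention MASH models (MASH being fatty liver disease that has become inflamed). Since the labels do not say that replicates came from separate animals, p-values reflect no more than the spread among these 6 samples, and that spread may be technical. Nor do they say how the cells were isolated.

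Each ribosome holds its proteins in fixed numbers, and their genes are among the most highly expressed of a cell. T cells that are activated make many new ribosomes before they divide. Most vertebrate ribosomal protein mRNAs begin with a C and an unbroken run of pyrimidines, the 5′ terminal oligopyrimidine (TOP) motif. Through this motif and its reader Larp1, the kinase complex mTORC1 sets how strongly they are translated, with no need for a change in mRNA level. A protein made without its ribosomal partners is degraded, and free Rpl5 and Rpl11 with 5S rRNA bind Mdm2 and stabilise p53. The levels given here are of mRNA, and neither translation nor protein was measured.

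The first bases of these mRNAs are the sequence feature for which the family is best known, so the 45 bases around the annotated start are shown for genes that fell, rose or have a copy in the comparison of the diets. They are from RefSeq on GRCm38.p6 and run from 25 bases before the start to 20 bases from it, on the strand of the gene. Capitals mark the unbroken run of C and T that begins at the start.
Rpl15, chr14:18270967-18271011, minus strand: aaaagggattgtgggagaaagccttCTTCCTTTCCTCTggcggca
Rps6, chr4:86857348-86857392, minus strand: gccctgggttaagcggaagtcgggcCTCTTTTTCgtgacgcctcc
Rpl28, chr7:4792940-4792984, plus strand: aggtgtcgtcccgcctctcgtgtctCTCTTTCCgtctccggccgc
Rps15, chr10:80292406-80292450, plus strand: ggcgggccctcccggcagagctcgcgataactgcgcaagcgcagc
Rpl14, chr9:120571492-120571536, plus strand: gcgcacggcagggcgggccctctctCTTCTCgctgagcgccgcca
Rps25, chr9:44407689-44407733, plus strand: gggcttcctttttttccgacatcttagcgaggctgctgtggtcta
Rps27, chr3:90213629-90213673, minus strand: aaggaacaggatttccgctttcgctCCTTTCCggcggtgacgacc
Rps27rt, chr9:114982720-114982764, minus strand: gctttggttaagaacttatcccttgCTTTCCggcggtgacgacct
A C followed by at least 4 further C or T, read on the gene's strand from the annotated start, was found in 14 of the 65 members whose start was read (21.5%) and in 3.01% of 27025 genes of the same table. When such 5 bases could lie anywhere within the 5 bases before and the first 10 bases from the start, the shares were 46.2% of the members and 21.2% of all genes. The 6 letters CTTTCC, searched on both strands within 20 bases of the start with overlapping matches counted as present, stood in 12 of the 65 members (18.5%) and in 4.30% of all genes. Rpl15, Rps6, Rpl28, Rpl14, Rps27 and Rps27rt have the run at the annotated base, whereas Rps15 and Rps25 do not. An annotated start can lie some bases from the true one, so a start without the run is not evidence about the mRNA.

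Library totals ran from 14119816 to 14752121 normalized counts as deposited, and from 13188812 to 15482458 reads in the 5 libraries for which reads were recovered. Other cell types' markers moved strongly with the diet. The summed CD8 T cell identity genes, all 19 of which were called lower, took 0.390 to 0.441% of the counts in MCDHFD libraries and 0.844 to 0.849% in ND libraries. Macrophage genes, of which 19 of 20 were called higher, took 2.24 to 2.73% in MCDHFD libraries and 0.436 to 0.530% in ND libraries, so in the MCDHFD libraries they outweighed the genes of the labelled cell type. The 19 erythroid genes, all called higher, took 0.126 to 0.198% in MCDHFD libraries and 0.030 to 0.032% in ND libraries. Neutrophil (15 of 16), plasma cell (6 of 10) and cell cycle genes (11 of 22) were called higher, and B cell (14 of 16) and dendritic cell genes (13 of 15) lower. Neutrophil genes took 0.0806 to 0.135% in MCDHFD libraries and 0.0124 to 0.0172% in ND libraries, and dendritic cell genes 0.199 to 0.209% in MCDHFD libraries and 0.457 to 0.4998% in ND libraries. Plasma cell genes took 0.0759 to 0.111% in MCDHFD libraries and 0.0396 to 0.0413% in ND libraries, and B cell genes 0.136 to 0.153% in MCDHFD libraries and 0.168 to 0.184% in ND libraries. Cell cycle genes, of which 3 were called lower, took 0.105 to 0.125% in MCDHFD libraries and 0.102 to 0.106% in ND libraries. No marker of these lists was at 0 in all 6 libraries, and the part these cells had in the ribosomal protein levels was not tested. In bulk samples such as these, fewer cells of a type and less RNA per cell cannot be told apart.

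Ribosomal protein mRNAs differed little between the diets in a transcriptome that differed widely. Of the 86 members that passed the filter on low values, 84 had a log2 fold change (MCDHFD over ND) within 0.5 of 0, which is 97.7% of the members and 58.0% of all 13430 tested genes. The limma test at an adjusted p of 0.05, the rule for a call throughout, called 6 members higher and 21 lower, 31.4% in all, beside 58.4% of all tested genes (30.3% higher and 28.1% lower). The members' fold changes ran from -0.56 for Rpl15 to 1.22 for Rps4l, with a median of -0.072 beside 0.0038 for all genes, and Rps4l was the only member past 1. For 68 members (79.1%) the whole 95% interval of the fold change lay within 0.5 of 0, as it did for 33.6% of all tested genes. The libraries of the diets did not overlap for 30 members (34.9%), beside 65.4% of all tested genes, and 24 of the 27 called members were among these. Rpl26, Rpl37 and Rps24, all called lower, had overlapping libraries.

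**Figure D1:**
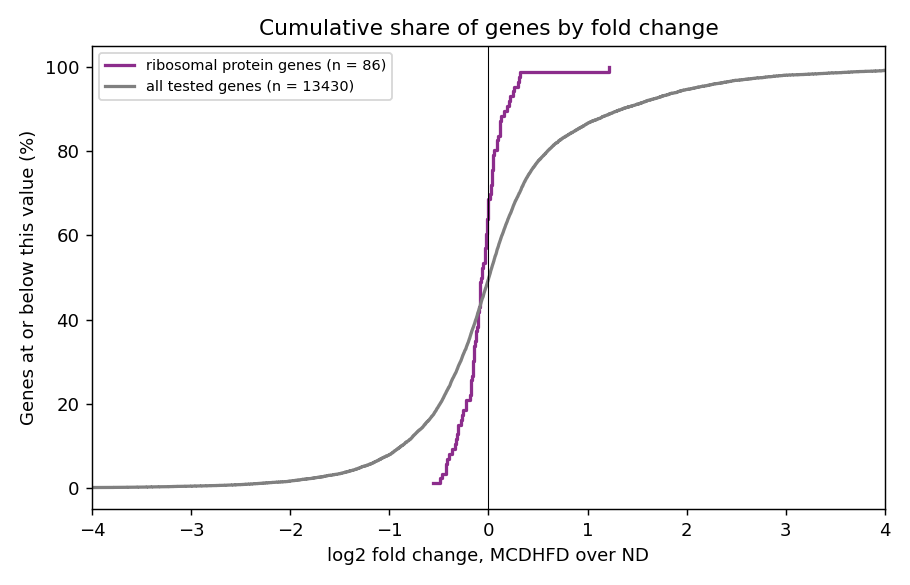
Cumulative share of genes (y axis, %) by log2 fold change of MCDHFD over ND (x axis, drawn from -4 to 4), for the 86 tested ribosomal protein genes and for all 13430 tested genes. The line of the ribosomal protein genes is steep, with 97.7% of them within 0.5 of 0, beside 58.0% of all genes.

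The same comparison was made among genes of high level. Of those with a mean of at least 1000 normalized counts, 32.2% of the 59 members were called, beside 66.4% of 3448 other genes, and all 59 members but 71.0% of the others lay within 0.5 of 0. The median standard error of the fold change was 0.066 for these members and 0.063 for these other genes. Small changes were not confined to this family. Within 0.5 of 0 also lay all 19 TOP mRNAs outside the rule, 95.8% of 48 assembly factors and 93.1% of 29 initiation factors. The share was 80% of 10 elongation and release factors and 64.7% of 17 genes that regulate mTORC1 and TOP translation. The median coefficient of variation of the members over the 3 libraries was 4.99% in MCDHFD and 5.92% in ND. The count of higher members was 3 without MCDHFD replicate 3, and the count of lower members was 13 without ND replicate 2. The calls were 3 higher and 27 lower under quantile scaling, and 4 higher and 30 lower when totals were set equal without ribosomal protein genes. All tested genes moved the same way, with 3552 higher and 4557 lower under quantile scaling and 3760 higher and 4221 lower with those equal totals, against 4065 and 3772 with the deposited scaling. The median of all genes shifted by -0.087 and -0.051 in log2 under these scalings. When libraries were scaled to equal CD8 T cell identity genes, the median log2 fold change was 0.96 for the members and 1.03 for all genes, and all 86 members were called higher. Set against the median of all genes, the members' median was then -0.07.

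**Figure D2:**
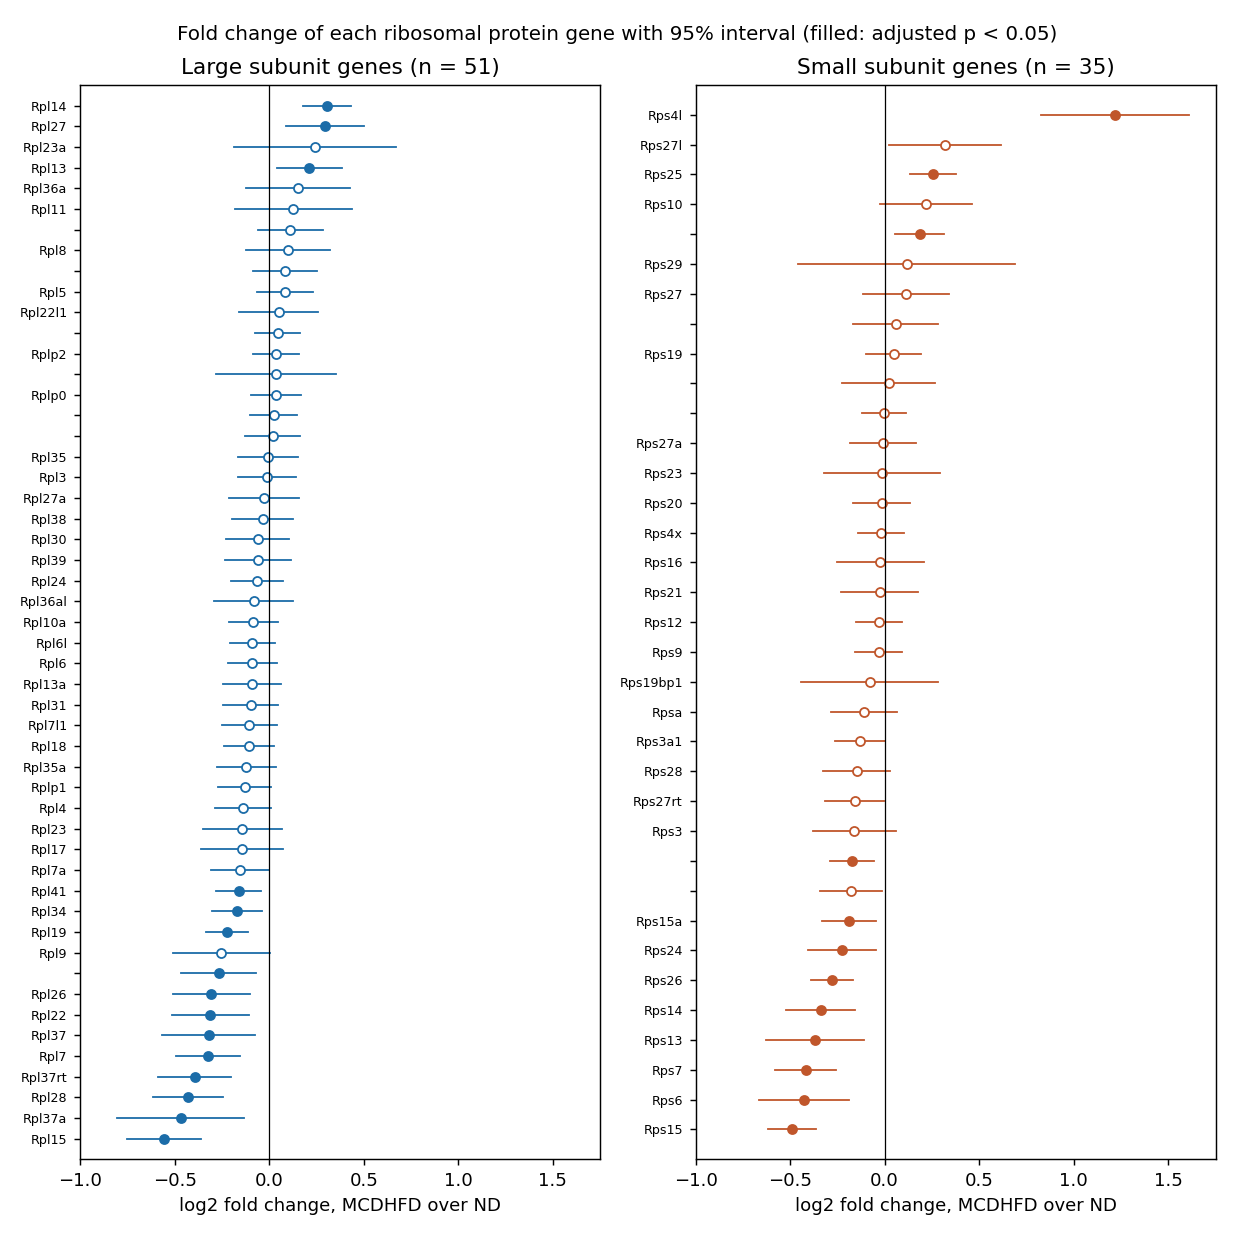
Log2 fold change of MCDHFD over ND (x axis) of each tested ribosomal protein gene, large subunit on the left (n = 51) and small subunit on the right (n = 35), ordered by value, with the 95% interval from limma as a line and labels for members named in the text. Filled points were called at an adjusted p of 0.05, and Rps4l, at 1.22, stands apart from the other 85. Under scaling to equal CD8 T cell identity genes all 86 values are above 0.

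Among the 6 members called higher were Rps4l, Rpl14, Rpl27, Rps25 and Rpl13, and all but Rps4l rose by 0.31 or less on the log2 scale. Rps4l, an intronless copy of the small-subunit gene Rps4x that GENCODE M21 lists as a transcribed processed pseudogene (chr6:148354656-148355598 on mm10, 1 exon), had 99.8, 99.3 and 102 normalized counts in MCDHFD libraries and 36.2, 42.8 and 49.5 in ND libraries. Every MCDHFD library was above every ND library, with 1.22 as the log2 fold change (SE 0.17, limma adjusted p = 0.000321). It is also among the members of lowest level, so its rise concerns few reads. Rpl14, a protein of the large subunit (chr9:120571444-120574654, 6 exons), had 4422, 4827 and 4531 normalized counts in MCDHFD libraries and 3670.1, 3889 and 3588 in ND libraries, again without overlap (log2 fold change 0.31, SE 0.056, limma adjusted p = 0.00144). Rps25, a small-subunit protein that many viral internal ribosome entry sites need, had 7193, 7725 and 7254 normalized counts in MCDHFD libraries and 6293, 6330.0 and 5947 in ND libraries, without overlap. Its log2 fold change was 0.26 (limma adjusted p = 0.00284, SE 0.053), and these 3 members kept their call under every alternative in which they were tested.

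The calls of Rpl27 and Rpl13 were lost under several alternatives. Both went with quantile scaling, with DESeq2 and at an adjusted p under 0.01, and that of Rpl27 also with edgeR. That of Rpl13 also went with equal totals without ribosomal protein genes. Rpl27 averaged 483 ± 41.3 normalized counts in MCDHFD and 393 ± 23.6 in ND (SD, n = 3 each), a log2 fold change of 0.30 (limma adjusted p = 0.0202) that lost its call without MCDHFD replicate 2, MCDHFD replicate 3 or ND replicate 3 (highest adjusted p over all alternatives 0.127). Rpl13 averaged 527 ± 24.5 normalized counts in MCDHFD and 455 ± 23.8 in ND (SD, n = 3 each), with a log2 fold change of 0.21 (limma adjusted p = 0.0387) that was no longer called without any of MCDHFD replicates 2 and 3 and ND replicates 1 and 2 (highest adjusted p 0.156). Of the 8 highest fold changes, those of Rps27l (0.32, limma adjusted p = 0.0631), Rpl23a (0.24, adjusted p = 0.295) and Rps10 (0.22, adjusted p = 0.108) were not called.

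Among the 21 members called lower, the drop was under 0.6 on the log2 scale in each. Rpl15, a protein of the large subunit (chr14:18267823-18271391, 25.7% of its 75-base stretches its own), had 408, 440.3 and 465 normalized counts in MCDHFD libraries and 696, 594 and 643 in ND libraries, all MCDHFD libraries being lower (log2 fold change -0.56, SE 0.086, limma adjusted p = 0.000541). Rps15, which sits in the head of the small subunit and is needed, in yeast and human cells, for the export of its precursor from the nucleus (chr10:80292453-80294114), had 10680.4, 11459.7 and 11561 normalized counts in MCDHFD libraries and 15376, 16499 and 15437 in ND libraries. The libraries of the diets were well apart, and Rps15 had the smallest adjusted p of all members (log2 fold change -0.49, SE 0.056, limma adjusted p = 9.34e-05). Rps7, a small-subunit protein that acts in processing of the 18S rRNA precursor in human cells (chr12:28630854-28635953), had 8697, 7713 and 7746 normalized counts in MCDHFD libraries and 11293, 11051 and 9921 in ND libraries, with no overlap (log2 fold change -0.42, limma adjusted p = 0.000924).

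Rps6, the small-subunit protein that S6 kinases phosphorylate downstream of mTORC1 (chr4:86854660-86857412), had 192, 199.5 and 182 normalized counts in MCDHFD libraries and 275, 265 and 234 in ND libraries. All 3 MCDHFD libraries were below all 3 ND libraries (log2 fold change -0.43, SE 0.10, limma adjusted p = 0.00682). Only 15.9% of the 75-base stretches of its main transcript are found in no other annotated gene, so these counts may hold a part of its reads only. Rpl28, a large-subunit protein, averaged 243 ± 7.20 normalized counts in MCDHFD and 328 ± 6.10 in ND (SD, n = 3 each; log2 fold change -0.43, limma adjusted p = 0.00187). Rpl37rt, a copy of Rpl37, fell by 0.39 on the log2 scale (limma adjusted p = 0.00368). Rpl37a fell by 0.47 and Rps13 by 0.37 (limma adjusted p = 0.0231 and 0.0213), but Rpl37a lost its call without MCDHFD replicate 1, MCDHFD replicate 3 or ND replicate 2, and Rps13 without MCDHFD replicate 2 or ND replicate 3. Further members called lower included Rpl7, Rpl19, Rpl22, Rpl26, Rpl34, Rpl37, Rpl41, Rps14, Rps15a, Rps24 and Rps26, with log2 fold changes between -0.34 for Rps14 and -0.16 for Rpl41. Of these, the call of Rpl34 was lost without MCDHFD replicate 1 or 3 or ND replicate 2 or 3. That of Rpl37 was lost without MCDHFD replicate 1 or 3 or ND replicate 1 or 2, and that of Rpl41 without MCDHFD replicate 1 or 3 or ND replicate 2. Rps15a lost its call without MCDHFD replicate 2 or 3 or ND replicate 1, and Rps24 without MCDHFD replicate 2 or 3 or ND replicate 1 or 2. Rpl34 and Rps13 also lost their calls with edgeR and DESeq2, Rpl37a with DESeq2, and Rpl41 and Rps15a under quantile scaling.

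Of all 27 called members, 13 kept their direction and call under every alternative but the scaling to equal CD8 T cell identity genes, under which every lower one is turned round: Rps4l, Rpl14 and Rps25 among the higher, and Rpl7, Rpl15, Rpl19, Rpl28, Rpl37rt, Rps6, Rps7, Rps14, Rps15 and Rps26 among the lower.

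**Figure D3:**
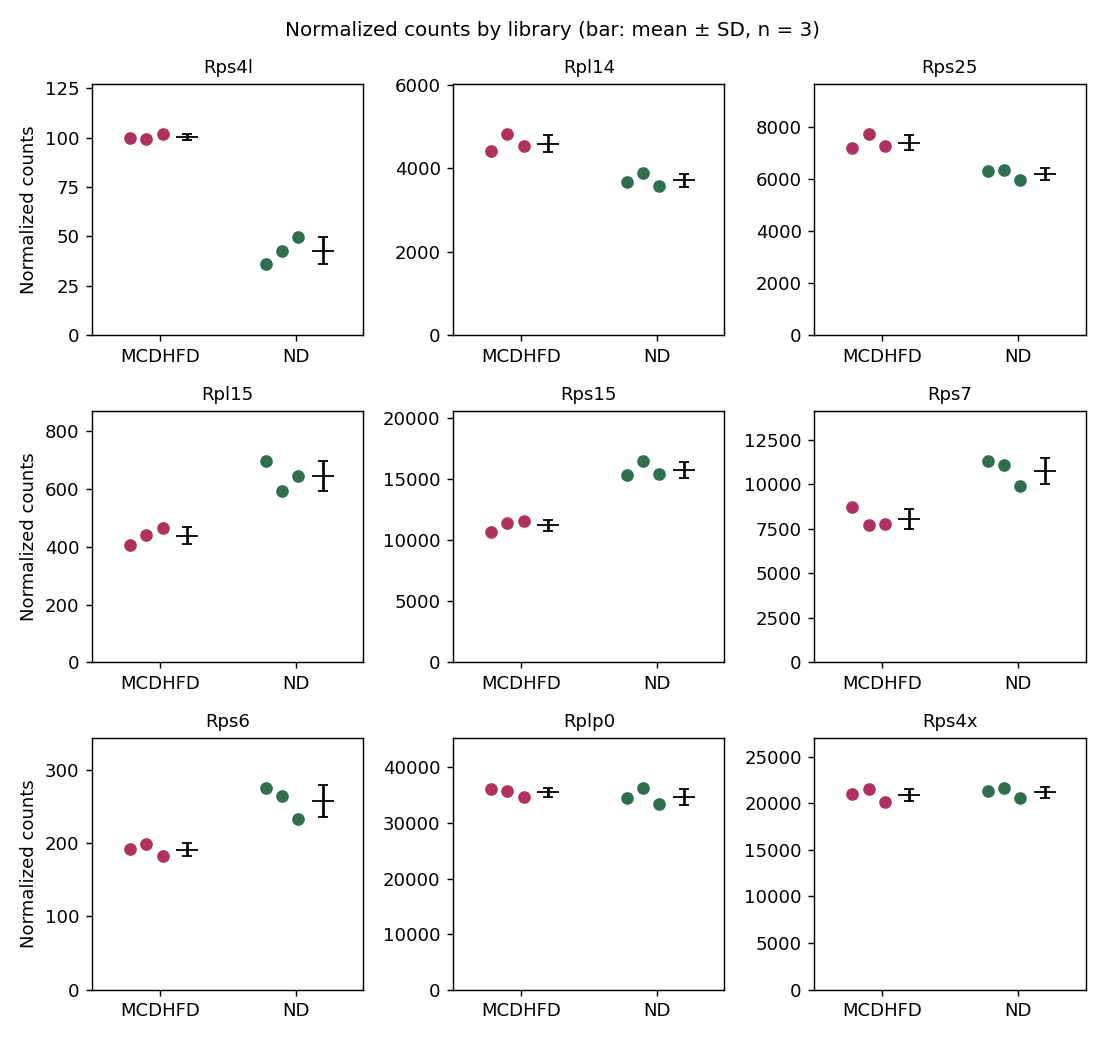
Normalized counts (y axes, each from 0) of 9 ribosomal protein genes in each of the 3 MCDHFD and 3 ND libraries (points), with the mean and SD of each diet as a bar. Rps4l, Rpl14 and Rps25 are higher in all MCDHFD libraries, Rpl15, Rps15, Rps7 and Rps6 lower, and Rplp0 and Rps4x overlap; with scaling to equal CD8 T cell identity genes all 9 are higher.

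The stalk of the large subunit, the arm on which Rplp0 carries pairs of Rplp1 and Rplp2 and which recruits the translation factors, had 0 of 3 members called. Rplp0 had 36178, 35834 and 34639 normalized counts in MCDHFD libraries and 34476, 36245 and 33418 in ND libraries, a log2 fold change of 0.035 with a 95% interval of -0.10 to 0.17. Rplp1 averaged 16967 ± 1032 in MCDHFD and 18534 ± 700.0 in ND, and Rplp2 7891 ± 301 in MCDHFD and 7692 ± 304 in ND (normalized counts, SD, n = 3 each). The partners of the 5S particle, which can hold Mdm2 when free, were not called either. Rpl5 averaged 1711 ± 102 normalized counts in MCDHFD and 1615 ± 83.2 in ND, and its log2 fold change had a 95% interval of -0.066 to 0.23. Rpl11 averaged 324 ± 56.0 in MCDHFD and 294 ± 21.8 in ND (SD, n = 3 each), with an interval of -0.18 to 0.44.

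Around the exit of the peptide tunnel, where the new chain leaves the large subunit, 3 of 8 members were called lower (37.5%, beside 28.1% of all genes) and none higher. They were Rpl19 (-0.22), Rpl22 (-0.31) and Rpl26 (-0.31, all log2 fold changes). Rpl22, which mice need for the development of αβ T cells, had 1749, 1858 and 2224 normalized counts in MCDHFD libraries and 2260.4, 2522 and 2422 in ND libraries (limma adjusted p = 0.0155). Its call was lost without MCDHFD replicate 2 or ND replicate 2 (highest adjusted p 0.0546), and that of Rpl26 without MCDHFD replicate 1 or 2 or ND replicate 1 or 3. Of 8 small-subunit members that line the path of the mRNA, 3 were called lower and none higher, with log2 fold changes of -0.34 for Rps14 and -0.28 for Rps26 among them. Rps26, which touches the mRNA before the start codon, had 5082, 5062 and 5089 normalized counts in MCDHFD libraries and 6204, 6397 and 5896 in ND libraries (limma adjusted p = 0.0012), with every MCDHFD library lower. A partial list of 9 members was taken whose human counterparts are mutated in Diamond-Blackfan anaemia, an inherited failure of red cell formation. Of these 9, Rps7, Rps24 and Rps26 were called lower and 6, with Rps19, were not called. The list leaves out other genes of this disease, so its counts are not those of the whole set. All these lists are too short to read a share from, and under scaling to equal CD8 T cell identity genes each of their members was above 0.

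Rpsa, a small-subunit protein that also serves as a laminin receptor, averaged 37726 ± 3141 normalized counts in MCDHFD and 40608 ± 2160.2 in ND (SD, n = 3 each), with a 95% interval of the log2 fold change of -0.28 to 0.068. Rps27a, made as a fusion with ubiquitin, averaged 1199 ± 81.8 in MCDHFD and 1208 ± 89.4 in ND, with an interval of -0.18 to 0.16. Neither was called. Fau, also made as a fusion, and the scaffold protein Rack1 of the small subunit have symbols that the rule passes over. Rack1 fell to 23926 ± 894 in MCDHFD, against 29255 ± 3561 in ND (log2 fold change -0.28, limma adjusted p = 0.0234), a call lost without MCDHFD replicate 2 or 3 or ND replicate 2 or 3 (highest adjusted p 0.0909). Fau averaged 5981 ± 207 normalized counts in MCDHFD and 6081 ± 270.3 in ND and was not called (limma adjusted p = 0.728). Rps19bp1, a nucleolar protein that binds Rps19, and Rpl7l1, related to an assembly factor of the yeast large subunit, fit the rule by name without being parts of the ribosome. Their log2 fold changes of -0.08 and -0.10 were not called (limma adjusted p = 0.688 and 0.194).

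Both subunits had members called in either direction. Of 51 tested large-subunit members 3 were called higher and 12 lower (29.4%), with a median log2 fold change of -0.084, and of 35 small-subunit members 3 higher and 9 lower (34.3%), with a median of -0.030. The small-subunit median was -0.099 under quantile scaling and -0.081 with equal totals without ribosomal protein genes. With edgeR it was -0.097 and with DESeq2 -0.093, both run without ND replicate 3. It was -0.065 without MCDHFD replicate 2, -0.018 without MCDHFD replicate 1, -0.014 without MCDHFD replicate 3, -0.0035 without ND replicate 2 and -0.087 without ND replicate 3. No difference between the subunits' medians is therefore read from these values. Without ND replicate 2 only 6 large-subunit members were lower, and without MCDHFD replicate 2 or 3 only 1 was higher. Quantile scaling gave 1 higher and 16 lower of the large and 2 higher and 11 lower of the small subunit. With equal totals without ribosomal protein genes, 2 higher and 18 lower of the large and 2 higher and 12 lower of the small subunit were called. With equal CD8 T cell identity genes all members of both subunits were higher, with medians of 0.95 (large) and 1.01 (small).

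Summed over all members, the family took 3.68%, 3.64% and 3.56% of all normalized counts in the MCDHFD libraries and 4.02%, 4.14% and 3.87% in the ND libraries. The means were 3.63 ± 0.063% in MCDHFD and 4.01 ± 0.13% in ND (SD, n = 3 each), and the libraries did not overlap. The large subunit took 1.96 ± 0.007% in MCDHFD and 2.13 ± 0.072% in ND, and the small subunit 1.67 ± 0.057% in MCDHFD and 1.88 ± 0.060% in ND. The 5 most abundant members make up 29.9% of the summed counts, so these sums weigh a few genes heavily. The ratio of the large to the small subunit sum, which does not change when a library is scaled by a single factor, was 1.15, 1.16 and 1.22 in MCDHFD libraries and 1.13, 1.14 and 1.13 in ND libraries. The MCDHFD libraries were above the ND libraries by 0.054 in mean log2, which was 0.028 without MCDHFD replicate 3, the library with the highest ratio. Set against the sum of the 19 CD8 T cell identity genes, the family stood at 8.92 ± 0.51 in MCDHFD and 4.74 ± 0.14 in ND, 1.88-fold higher. The family was thus lower as a share of all counts and higher per unit of CD8 identity transcript, and how much of either comes from the T cells was not tested.

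A few ribosomal proteins have a second gene, a paralog or a retained copy, that can replace the first in some tissues. The ratio of the genes of a pair within a library does not change when the library is scaled by a single factor, and it was not computed under quantile scaling. It was compared for 8 pairs with an exact two-sided permutation test over the 3 MCDHFD and 3 ND libraries, in which the smallest possible p is 0.1 and the smallest adjusted over the 8 pairs was 0.16, so no pair could pass 0.05. For 5 of the 8 pairs the libraries of the diets did not overlap (all exact permutation p = 0.1). Of all tested genes, taken singly, 65.4% did not overlap either.

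Rps4l and Rps4x differ enough to be told apart, with 80.0% identity over 820 aligned bases. The first 90 bases from the start codon show how, with the 15 differing bases in capitals. They are from the GENCODE M21 transcripts, Rps4l on chromosome 6 and Rps4x on chromosome X.
Rps4l: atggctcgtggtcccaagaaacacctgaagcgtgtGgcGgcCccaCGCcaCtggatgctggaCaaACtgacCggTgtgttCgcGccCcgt
Rps4x: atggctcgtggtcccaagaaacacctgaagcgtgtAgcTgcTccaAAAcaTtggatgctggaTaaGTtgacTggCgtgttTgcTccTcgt
Rps4x had 20948, 21548 and 20164 normalized counts in MCDHFD libraries and 21314, 21605 and 20550.5 in ND libraries and overlapped fully (log2 fold change -0.019, 95% interval -0.14 to 0.10). Rps4l amounted to 0.476%, 0.461% and 0.505% of Rps4x in MCDHFD libraries and 0.170%, 0.198% and 0.241% in ND libraries, a difference of 1.24 in log2. The copy thus stayed under 1% of its partner in all 6 libraries. Of the 75-base stretches of Rps4l 93.3% are its own, and the rest are shared with its pseudogene Rps4l-ps.

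Rpl22l1, which rises in mice that lack Rpl22, amounted to 32.7%, 33.3% and 27.6% of Rpl22 in MCDHFD libraries and 25.5%, 25.9% and 21.5% in ND libraries, a difference of 0.36 in log2 without overlap. Of the pair Rpl22 was called, as given above, while Rpl22l1 averaged 601 ± 26.0 normalized counts in MCDHFD and 583 ± 67.4 in ND (SD, n = 3 each) and was not (limma adjusted p = 0.669). Rplp2, no copy but a partner of Rplp1 in the stalk, amounted to 46.9%, 45.4% and 47.3% of Rplp1 in MCDHFD libraries and 40.4%, 41.0% and 43.2% in ND libraries, a difference of 0.17 in log2 without overlap, though neither gene was called. Rpl7l1 over Rpl7 was higher in MCDHFD libraries by 0.22 in log2, and by 0.094 without ND replicate 2, while Rpl7 fell by 0.32 on the log2 scale (limma adjusted p = 0.00478). Rps27rt over Rps27 was lower by 0.27 in log2, without overlap. These genes are identical over 341 aligned bases, and how their shared reads were divided is not known. For Rpl36al over Rpl36a (difference -0.24 in log2), Rpl37rt over Rpl37 (-0.075) and Rps27l, a target of p53, over Rps27 (0.21) the libraries overlapped, with exact permutation p of 0.4, 0.3 and 0.4. Rpl6l, a processed pseudogene with 98.7% identity to Rpl6, was added after its values were seen and amounted to 21.03%, 23.2% and 23.4% of Rpl6 in MCDHFD libraries and 21.6%, 23.3% and 22.7% in ND libraries.

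**Figure D4:**
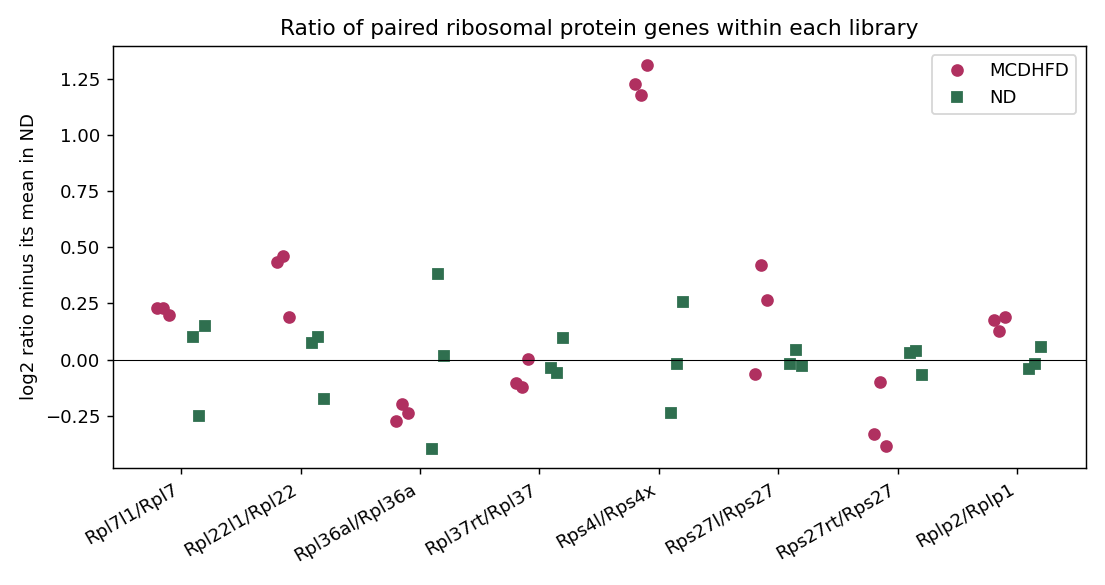
Log2 ratio of the first to the second gene of each of the 8 tested pairs in each library, minus the mean of the ND libraries (y axis), for 3 MCDHFD (circles) and 3 ND libraries (squares). The Rps4l/Rps4x ratio is higher in all MCDHFD libraries by 1.24 on average, while no other of these 8 pairs moves by more than 0.36.

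Rpl39l, a copy of Rpl39 known from mouse male germ cells, was the only member under the filter on low values. It was listed at 0, 4.91 and 0 normalized counts in MCDHFD libraries and 0, 11.7 and 7.92 in ND libraries. With 0 in 3 of the 6 libraries its ratio to Rpl39, which averaged 979 ± 88.2 in MCDHFD and 1018 ± 38.3 in ND, was not tested.

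Although ribosomes hold their proteins in fixed numbers, the members spanned a wide range of counts. By mean normalized counts per kb of the main transcript, the 4 highest were Rplp1 (34001 in MCDHFD and 37142 in ND), Rpl8 (31202 in MCDHFD and 29047 in ND), Rps15 (22468 in MCDHFD and 31542 in ND) and Rpl4 (25260.4 in MCDHFD and 27801 in ND). Rplp0 (26178 in MCDHFD and 25562 in ND) and Rpsa (23594 in MCDHFD and 25396 in ND) were close to Rpl4, and Rpl13a was somewhat lower (21967 in MCDHFD and 23351 in ND). At the low end, Rps4l had 106 in MCDHFD and 45.4 in ND, Rps23 107 in MCDHFD and 108 in ND, Rps29 133 in MCDHFD and 121 in ND, Rpl23a 159 in MCDHFD and 136 in ND, and Rps19bp1 163 in MCDHFD and 172 in ND. The tested members spread over a 469-fold range in the mean of the 6 libraries. Its low end is Rps4l (75.9 per kb), which the annotation lists as a pseudogene, and the next lowest was Rps23 (107 per kb). Rps23, in the decoding centre, and Rps29 are obligate parts of the small subunit, yet Rps29 had 36.7, 58.0 and 60.4 normalized counts in MCDHFD libraries and 54.8, 48.6 and 37.6 in ND libraries. Rps4l apart, the low members were not called, and Rps29 had a 95% interval of the log2 fold change of -0.46 to 0.69, the widest of all members.

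Ribosomal protein genes have many processed copies in the mouse genome, and the sources used here do not give how reads that fit several genes were counted. Over all stretches of 75 bases of the main transcripts, a median of 49.7% per member occurs in no other gene of the annotation, and 83 of the 87 members share stretches with at least 1 other gene. The 4 that share none include Rps3, Rps19bp1 and Rpl39l. The median level was 1593 normalized counts per kb for the 20 members with under 25% of own stretches, 4302 for the 50 with 25 to 75%, and 5772 for the 17 with at least 75%. Correlations were taken across the 84 tested members other than Rps19bp1 and Rpl7l1, with the 3 members listed as pseudogenes kept in. The log2 level per kb and the share of own stretches had a Pearson correlation of 0.26 and a Spearman correlation of 0.31. This is a description over genes that share the 6 libraries. The share of own stretches and the fold change had correlations of -0.011 (Pearson) and -0.15 (Spearman). In the 41 tested members with at least 50% of own stretches, a split chosen after the data were seen, 2 were called higher and 15 lower (41.5%), and in the 45 with under 50%, 4 higher and 6 lower (22.2%), beside 58.4% of all tested genes. The difference between these shares was not tested.

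**Figure D5:**
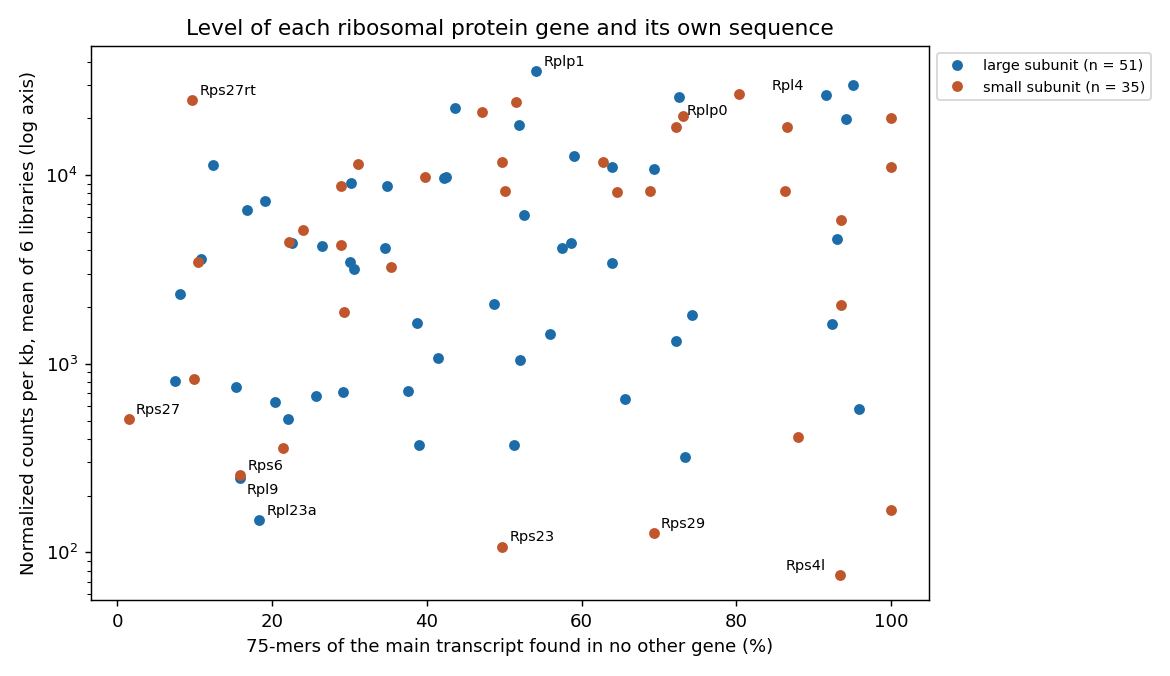
Mean normalized counts per kb over the 6 libraries (y axis, log scale) of each tested ribosomal protein gene against the share of 75-base stretches of its main transcript that no other annotated gene holds (x axis, %), large subunit in blue and small subunit in orange. Members with under 25% of own stretches have a median of 1593, those with at least 75% of 5772, and both ends of the level range occur on either side. The median of 5772 is over 17 members and counts Rpl39l, which was not tested and is not drawn.

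For several members a named copy held most of the summed counts of the pair. Rps27rt, identical to Rps27 over 341 aligned bases, held 98.1% of the summed counts of the pair, with 8529.8, 9529 and 8321 normalized counts in MCDHFD libraries and 9765, 10399 and 9262 in ND libraries, whereas Rps27 had 184, 176 and 187 in MCDHFD libraries and 164, 174 and 167 in ND libraries. The start sequences of the pair, shown above, are the same from the letters CTTTCC on, Rps27 having a further C before them. Rpl23a-ps3 held 99.0% of its sum with Rpl23a, Rpl9-ps6 97.3% of that with Rpl9, and Rpl27-ps3 90.1% of that with Rpl27. Adding the copy turned the direction of some members: the log2 difference of Rpl27 was 0.30 alone and -0.15 with Rpl27-ps3, that of Rpl23a 0.24 alone and -0.10 with Rpl23a-ps3, and that of Rps27 0.11 alone and -0.15 with Rps27rt. Rpl9 (-0.25 alone, -0.18 with Rpl9-ps6), Rpl37 (-0.32 alone, -0.37 with Rpl37rt) and Rps26 (-0.28 alone, -0.25 with Rps26-ps1) stayed lower. These sums were formed after the values were seen and carry no test. The call of Rpl27 thus covers the reads counted under Rpl27, and not the pair. The 19 pseudogenes named with -ps took 0.151 ± 0.004% of the counts in MCDHFD and 0.173 ± 0.009% in ND (SD, n = 3 each).

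Both the members with and those without the TOP run at the annotated start were mostly not called. Of all tested genes 58.4% were called (30.3% higher and 28.1% lower). Of the 14 with it, 1 was called higher (Rpl14) and 4 lower (Rpl15, Rpl28, Rps6 and Rps15a), with a median log2 fold change of -0.031. Of 50 tested members with another start, 3 were called higher and 13 lower, with a median of -0.089. TOP mRNAs that encode no ribosomal protein of the rule, such as translation factors, gave 1 higher and 7 lower of 19, with a median of -0.13. Among them were Eef1d, a subunit of the exchange factor of elongation (-0.40), and Naca, which shields new chains at the tunnel exit (-0.38), whereas the most abundant, Eef1a1 and Eef2, were not called (-0.014 and 0.00026, all log2 fold changes).

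Some genes that make, load or watch over ribosomes had fold changes larger in size than those of all members but Rps4l. Most assembly factors (46 of 48) and initiation factors (27 of 29) nevertheless lay within 0.5 of 0 in log2. Of the assembly factors 18 of 48 were called higher and 5 lower (37.5% and 10.4%, beside 30.3% and 28.1% of all genes), with a median log2 fold change of 0.13. Utp4, of the small-subunit processome, averaged 1266 ± 38.1 normalized counts in MCDHFD and 819.9 ± 36.7 in ND (0.63), and Gnl3, the nucleolar GTPase nucleostemin, 2119 ± 57.9 in MCDHFD and 1500.3 ± 70.2 in ND (0.50). Mdn1, an ATPase whose yeast counterpart strips factors from the large subunit precursor, averaged 3567 ± 226 in MCDHFD and 6797 ± 37.5 in ND (-0.93, all SD, n = 3 each and log2 fold changes). Of 10 host genes of small nucleolar RNAs 5 were called higher and none lower, led by Snhg3 (0.92) and Snhg17 (0.52). Among 14 genes of RNA polymerase I 4 were higher and 5 lower, and Polr1d, a subunit shared with RNA polymerase III, fell by 0.74 in log2. Of 7 dedicated chaperones and carriers of ribosomal proteins, Bccip (-0.25) and Ltv1 (-0.22) were lower and none higher, the call of Ltv1 being lost with DESeq2.

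Initiation factors gave 6 higher and 7 lower of 29, with Eif3d at -0.52 and Eif4e, the cap-binding protein, at 0.996 in log2. Eif4e had 785, 347 and 832 normalized counts in MCDHFD libraries and 311, 294 and 311 in ND libraries, and its call was lost without MCDHFD replicate 1 or 3 (highest adjusted p over all alternatives 0.0547). Elongation and release factors gave 3 higher and 3 lower of 10, with the release factor Gspt1 at 0.55 and Eif5a at 0.54. The genes that regulate mTORC1 and TOP translation gave 9 higher and 4 lower of 17. Ddit4, an inhibitor of mTORC1 that stress induces, had 3634, 4633 and 4415 normalized counts in MCDHFD libraries and 650.0, 616 and 556 in ND libraries (log2 fold change 2.79, limma adjusted p = 1.49e-07). The mTOR inhibitor Deptor (1.72), the Eif4e-binding repressor Eif4ebp1 (1.70) and Sesn2, which senses leucine (0.88), were called higher too. Of the 9 quality control genes 3 were higher and 6 lower, with Map3k20, the kinase that stalled and collided ribosomes activate, at 199 ± 20.3 normalized counts in MCDHFD and 32.7 ± 5.17 in ND (SD, n = 3 each). In the p53 list, which free Rpl5 and Rpl11 feed, Cdkn1a was higher (1.05), Trp53 (-1.17) and Mdm4 (-0.31) were lower and Mdm2 was not called. Over all these lists, 50 of the distinct genes were called higher and 37 lower, with a median log2 fold change of 0.037 that was -0.0080 under quantile scaling and -0.014 with equal totals without ribosomal protein genes. With equal CD8 T cell identity genes 154 were higher and none lower, and of the lower genes named here all but Trp53 were turned round. The macrophage and erythroid markers given above moved with these genes as well, and their part was not tested.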

How the data were processed

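RNA-seq libraries of splenic CD8+ T cells (3 MCDHFD, 3 ND) were made from TRIzol RNA with a kit for whole RNA or for mRNA, per the labels' protocols, which do not tell the kit of each library. The authors deposited normalized counts per gene and library (a signal, with counts divided by a size factor) on the mm10 build, which the submitters' processing notes name. The sources used here do not give the aligner, the counting tool, whether strand was used or what was done with reads that fit several genes. In 5 libraries all values were whole multiples of a single step (tolerance 0.01), which gave back the reads. The other ND library, replicate 3, was left out of the count tests. Its reads were not recovered here, which does not show that they could not be.

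Gene IDs were matched to GENCODE M21 symbols (19202 of 19323). Values were tested as log2(value + 1) with limma 3.58.1 in R 4.3.3, with an intensity trend, for 13430 genes with a mean of at least 10, and p-values were adjusted by Benjamini-Hochberg over all of them. Fold changes are on this scale, which understates those of low genes. On the recovered reads edgeR 4.0.16 called 3687 genes higher and 3449 lower, and DESeq2 1.42.0 called 3545 higher and 3170 lower. Both are alternatives, beside other pseudocounts, filters, scalings, thresholds, weights, a replicate block and leaving out each library, and the code was tested on simulated data. The 4 same-diet pairs with recovered reads differed by more than sampling noise (chi-square per degree of freedom between 6.44 and 12.4). They were not taken for a library deposited more than once, which does not show that they came from separate animals. Paralog ratios were tested with scipy 1.17.1. Stretches of 75 bases were compared over the annotated transcripts, and alignments used Biopython 1.88.

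The members and lists were chosen with earlier results of these data known. Named are the 8 highest and 8 lowest fold changes, the 5 highest and 5 lowest means, all paralog pairs, members of set roles and up to 4 called genes of each translation list by size of change. The role groups, the start-sequence groups, the sums with copies, the 75-base stretches, the Rpl6l pair and the further called members and list genes named were chosen after values were seen. Some genes are not reported here by name.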

Additional observations from a re-analysis of the deposited data

How the results depend on the processing

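Scaling changed the directions most. With libraries scaled to the same mean log2 level of CD8 T cell identity genes, 11188 of all genes were called higher and 454 lower, all 86 members were higher and 0 lower (51 and 0 of the large, 35 and 0 of the small subunit), and 154 genes of the translation lists were higher and 0 lower. The median log2 fold changes were then 0.96 for the members, 0.95 for the large subunit, 1.01 for the small subunit and 1.07 for the translation lists. Under this scaling the 59 members with a negative log2 fold change had positive ones, between 0.48 and 1.03, among them Rpl10a 0.95, Rpl13a 0.95, Rpl15 0.48, Rpl17 0.89, Rpl18 0.93, Rpl19 0.81, Rpl22 0.72, Rpl23 0.89, Rpl24 0.97, Rpl26 0.73, Rpl27a 1.01, Rpl28 0.60, Rpl3 1.03, Rpl30 0.98, Rpl31 0.94, Rpl34 0.86, Rpl35 1.03, Rpl35a 0.92, Rpl36al 0.95, Rpl37 0.72, Rpl37a 0.56, Rpl37rt 0.64, Rpl38 1.0001, Rpl39 0.97, Rpl4 0.90, Rpl41 0.88, Rpl6 0.95, Rpl6l 0.95, Rpl7 0.71, Rpl7a 0.88, Rpl7l1 0.93, Rpl9 0.78, Rplp1 0.91, Rps12 1.01, Rps13 0.66, Rps14 0.70, Rps15 0.55, Rps15a 0.85, Rps16 1.01, Rps19bp1 0.95, Rps20 1.02, Rps21 1.01, Rps23 1.01, Rps24 0.81, Rps26 0.76, Rps27a 1.03, Rps27rt 0.88, Rps28 0.89, Rps3 0.88, Rps3a1 0.91, Rps4x 1.02, Rps6 0.61, Rps7 0.62, Rps9 1.01 and Rpsa 0.93. So had 15 named genes of the other lists, at Rack1 0.75, Fau 1.01, Eif3d 0.52, Eif4a2 0.70, Eef1d 0.64, Abce1 0.82, Naca 0.66, Mdn1 0.10, Bccip 0.78, Ltv1 0.82, Polr1d 0.29, Znrd1 0.55, Ascc3 0.38, Gcn1l1 0.70 and Mdm4 0.73. This scaling raises every gene of the MCDHFD libraries by the drop of the identity genes.

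With quantile scaling 3 members and 1 of the large subunit were higher, the small-subunit median was -0.099 and that of the translation lists -0.0080, the opposite sign. Equal totals without ribosomal protein genes gave medians of -0.12 for the members, -0.13 for the large and -0.081 for the small subunit, and -0.014, the opposite sign, for the translation lists. On recovered reads of 5 libraries the small-subunit median was -0.097 with edgeR and -0.093 with DESeq2, which called 3 members higher and 1 of the large subunit. At an adjusted p under 0.01, 3 members were higher and 10 lower (1 and 5 of the large subunit, 5 lower of the small), and 31 genes of the translation lists were higher and 24 lower. Among the members with at least 50% of own 75-base stretches, a setting chosen after seeing the data, 2 were higher. The causes of these differences were not tested.

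Leaving out each library in turn gave 3 to 7 members higher and 13 to 20 lower, with medians of -0.10 to -0.043. For the large subunit it gave 1 to 3 higher, 6 to 11 lower and medians of -0.10 to -0.052, and for the small subunit 2 to 4 higher, 6 to 10 lower and medians of -0.087 to -0.0035. The translation lists had 41 to 42 higher, 29 to 36 lower and medians of 0.022 to 0.071. The log2 difference of the subunit ratio ran from 0.028 to 0.071, that of Rps4l over Rps4x from 1.12 to 1.37, Rpl22l1 over Rpl22 from 0.27 to 0.45, Rpl7l1 over Rpl7 from 0.094 to 0.29, Rps27rt over Rps27 from -0.36 to -0.22, Rplp2 over Rplp1 from 0.15 to 0.19, Rps27l over Rps27 from 0.10 to 0.34, Rpl37rt over Rpl37 from -0.11 to -0.027 and Rpl36al over Rpl36a from -0.43 to -0.045.

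A fit with the replicate number as a block called 6 members higher and 25 lower. The deviations of same-numbered libraries correlated at 0.036, 0.062 and 0.0057, so the numbers were not taken as pairs. Pseudocounts of 0.5 and 5, TMM scaling and no filter left all 86 members' directions and calls as they were. Precision is limited by 3 libraries a diet. The median standard error was 0.073 for members with under 50% of own stretches and 0.074 for those with at least 50%.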
